A study of Mus musculus with 6 samples.

Results

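The C/EBP genes are described here in mouse alveolar macrophages, which clear particles and surfactant from the air spaces of the lung, across 6 RNA-seq libraries. The 5 members, chosen by symbol and not by level, were Cebpa, Cebpb, Cebpd, Cebpg and Cebpz, out of 11789 protein-coding genes in the deposited table, and all 5 passed the minimum mean level for testing. The libraries were A20-1, A20-3 and A20-4, taken from mice labelled A20 conditional knockout, and BLM1, BLM2 and BLM3, taken from mice labelled wild type. Every mouse was of strain C57BL/6 and had the exposure abbreviated BLM in the series title, so no unexposed group was analysed here. A20 is the protein product of Tnfaip3, a ubiquitin-editing inhibitor of NF-kB signalling. Which cells lost A20, which exons were deleted, the age and sex of the mice, the dose and day of the exposure, and the number of mice behind each library are not stated in the labels. The p-values therefore measure the spread between these 6 libraries, part of which may be technical.

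C/EBP proteins bind DNA as dimers through a basic region and leucine zipper (bZIP) and are known for directing myeloid differentiation, inflammatory gene expression and fat storage. C/EBP alpha is needed for granulocyte and macrophage lineages, while C/EBP beta and C/EBP delta are classically induced by inflammatory signals. C/EBP gamma lacks a strong activation domain of its own and acts as a partner of other bZIP proteins, among them ATF4 in the amino acid response. Cebpz shares the family symbol but encodes no bZIP protein. Its product is a nucleolar factor of ribosome assembly, related to Noc1 of budding yeast.

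The coordinates are those of GRCm38, as deposited. Cebpa (ENSMUSG00000034957.10) lies on chromosome 7 at 35119293 to 35121928 on the plus strand, and Cebpg (ENSMUSG00000056216.9) on the same chromosome at 35046422 to 35056573 on the minus strand, 62719 bases from it. Cebpb (ENSMUSG00000056501.3) lies on chromosome 2 at 167688915 to 167690418, plus strand, and Cebpd (ENSMUSG00000071637.5) on chromosome 16 at 15887286 to 15891031, plus strand. Cebpz (ENSMUSG00000024081.8) lies on chromosome 17 at 78919006 to 78937070, minus strand. In the GENCODE M21 annotation Cebpb and Cebpd consist of 1 exon, Cebpa has 1 or 2 depending on the transcript, Cebpg has 2 and Cebpz has 16. The longest annotated proteins have 359 codons for Cebpa, 296 for Cebpb, 268 for Cebpd, 150 for Cebpg and 1052 for Cebpz, so C/EBP gamma is the shortest and CEBPZ the longest.

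The upstream windows are shown for the 3 members with an entry in the RefSeq promoter table (GRCm38.p6), and were not chosen by level or difference. Each window is the 250 bases before the start in RefSeq, read 5′ to 3′ on the strand of the gene, at chr7:35119043-35119292 for Cebpa, chr2:167688665-167688914 for Cebpb and chr7:35056567-35056816 for Cebpg. Capitals mark matches, on either strand, to the motifs named after the sequences. Cebpd and Cebpz had no entry in the RefSeq promoter table.
Cebpa: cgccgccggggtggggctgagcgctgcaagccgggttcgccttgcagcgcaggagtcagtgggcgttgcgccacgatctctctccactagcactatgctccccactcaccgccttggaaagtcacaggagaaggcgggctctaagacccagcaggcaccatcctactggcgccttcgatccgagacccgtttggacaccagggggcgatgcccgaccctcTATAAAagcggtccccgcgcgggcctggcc
Cebpb: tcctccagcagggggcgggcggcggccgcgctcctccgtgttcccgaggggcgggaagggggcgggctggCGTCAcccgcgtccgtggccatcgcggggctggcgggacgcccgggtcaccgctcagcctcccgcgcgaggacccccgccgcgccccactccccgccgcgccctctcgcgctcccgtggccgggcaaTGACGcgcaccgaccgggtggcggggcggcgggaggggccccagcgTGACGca
Cebpg: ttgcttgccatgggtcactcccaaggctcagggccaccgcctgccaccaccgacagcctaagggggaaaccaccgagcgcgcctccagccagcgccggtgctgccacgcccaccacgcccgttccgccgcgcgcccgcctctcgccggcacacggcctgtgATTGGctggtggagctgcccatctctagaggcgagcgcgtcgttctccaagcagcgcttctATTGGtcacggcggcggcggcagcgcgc

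The motifs searched on both strands were the TATA box, spelled TATAAA, the CCAAT box, the half-site of the cAMP response element bound by CREB and ATF proteins, spelled TGACG, the full element TGACGTCA, which contains TGACG, the C/EBP palindrome TTGCGCAA, the relaxed C/EBP pattern TTNNGNAA, and TGATGCAAT, a composite of C/EBP and ATF half-sites. The Cebpa window held TATAAA, 30 to 25 bases before the start, a match found in 12.3% of 32536 windows of the same length in the table. The Cebpb window held TGACG at 3 places, beginning 53 and 7 bases before the start and, on the opposite strand, 180 bases before it. Of all windows 17.9% held at least 1 such half-site. The Cebpg window held CCAAT on the opposite strand, spelled ATTGG, 89 to 85 and 28 to 24 bases before the start, and 33.8% of all windows held a CCAAT. None of the capitals belong to TGACGTCA, TTGCGCAA, TTNNGNAA or TGATGCAAT, which have no match in these 3 windows and occur in 1.56%, 0.166%, 36.8% and 0.160% of all windows. The windows were rich in G and C, with 66.4% for Cebpa, 81.6% for Cebpb and 70.8% for Cebpg, against a median of 52.4% over the table. These matches describe letters in the windows and say nothing of which proteins bind there.

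Library BLM3 stood apart from the other 5. Its values correlated with those of BLM1 and BLM2 at r of 0.913 to 0.925 across genes, against 0.977 to 0.980 among the knockout libraries. Sums over 8 neutrophil markers, with S100a8, S100a9 and Retnlg among them, were 114 to 157 FPKM in the knockout libraries and 148, 162 and 2799 FPKM in BLM1, BLM2 and BLM3. FPKM is a fragment number scaled to the length of the transcript and to the total of mapped fragments. Of these 8 markers 6 or 7 reached 1 FPKM in the other 5 libraries and all 8 did in BLM3. S100a8 and S100a9 made up most of the BLM3 sum, at 861 and 1535 FPKM. Mmp8 (32.2 FPKM) and Ltf (28.9 FPKM) did not stand out in BLM3, with 41.7 FPKM of Mmp8 in A20-3 and 35.5 FPKM of Ltf in A20-1. Of the 7 markers tested, 5 had a negative log2 difference, and Mmp8 and Ltf a positive one. Without BLM3 3 were negative and 4 positive. Ly6g, a defining neutrophil marker, was listed at 0 in A20-3, A20-4, BLM1 and BLM2, at 0.0752 FPKM in A20-1 and at 2.25 FPKM in BLM3. All 11 alveolar macrophage markers in the table reached 1 FPKM in 5 libraries, and 10 did in BLM3, where Krt79 was at 0.972 FPKM. Their summed level was 4236 to 6564 FPKM in the knockout and 3388 to 5810 FPKM in the wild-type libraries, the lowest in BLM3. Chil3 made up most of that sum, with a mean of 4364 FPKM in the knockout and 3873 FPKM in the wild type. Taken gene by gene, 10 of the 11 had a positive log2 difference, against 5663 of all 10696 genes tested, and 8 did without BLM3. The median was 0.78, or 0.34 without BLM3, against 0.02 and 0.03 over all genes. Fabp1, Krt79, Ear1, Cidec and Pparg were higher in every knockout library than in any wild-type library, as were 15.9% of all genes tested. Marco fell (-1.87, limma adjusted p = 0.0466), a call lost without A20-3, where 0 genes passed. Monocyte and recruited macrophage markers summed to 375 to 505 FPKM in the knockout and 1234 to 1687 FPKM in the wild-type libraries, without overlap. In each library 12 or 13 of 13 reached 1 FPKM. C1qa, C1qb and C1qc made up most of that sum, with means of 117, 119 and 56.2 FPKM in the knockout and 426, 468 and 195 FPKM in the wild type. Among the 13 gene IDs 12 (92.3%) had a negative log2 difference, against 47.1% of all genes tested. Cx3cr1 (0.56) was the exception, and 11 were negative without BLM3. Lung epithelial markers summed to 456 to 510.2 FPKM in the knockout and 101.0 to 290.4 FPKM in the wild-type libraries, with 10 of 10 at 1 FPKM or more throughout. Scgb1a1 had the highest mean of them, 207 FPKM in the knockout and 67.0 FPKM in the wild type. The log2 difference was positive in 8 of the 10, against 5663 of all 10696 genes tested, and in 7 without BLM3. Values did not overlap in 60% of the list, 4 higher and 2 lower in the knockout, against 29.0% of all genes tested. Krt8 (-1.08) and Krt18 (-1.49) went the other way, lower in every knockout library than in any wild-type library, as were 13.1% of all genes tested. Lymphocyte markers summed to 140.5 to 154 FPKM in the knockout and 89.1 to 306 FPKM in the wild-type libraries, with 9 or 10 of 10 at that level. Their log2 difference was negative in 8 and positive in Cd8a and Nkg7, and negative in 6 without BLM3. In bulk RNA fewer cells of a type and less RNA per cell cannot be told apart, and the part of other cell types in the differences of C/EBP genes was not tested. Tnfaip3 had 8.44, 12.9 and 6.80 FPKM in A20-1, A20-3 and A20-4, against 4.47, 2.18 and 21.6 FPKM in BLM1, BLM2 and BLM3, a log2 difference of 0.46 ± 0.69, and 1.27 without BLM3 (SE, limma adjusted p = 0.734 and 0.0797). Since the deleted exons are not stated, this whole-gene level checks nothing about the knockout label.

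**Figure D1:**
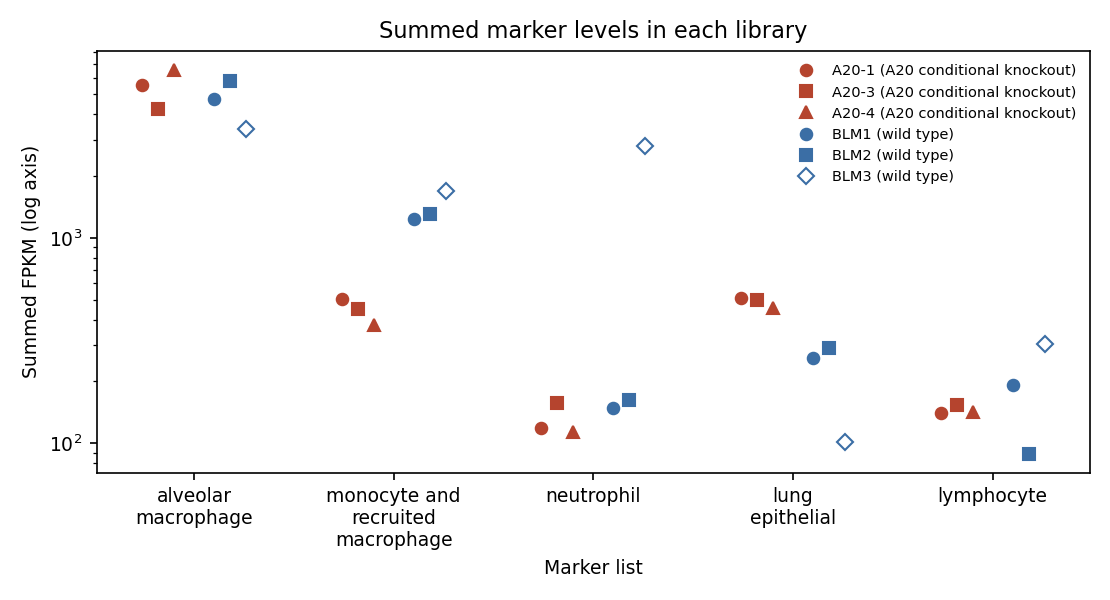
Summed FPKM of 5 marker lists (log axis) in each library, with the knockout libraries at the left of each pair and the wild-type libraries at the right. The neutrophil sum of BLM3 (open diamond) was 2799 FPKM, against 114 to 162 FPKM in the other 5 libraries, and the monocyte and recruited macrophage sums of the groups did not overlap. C1qa, C1qb and C1qc made up most of the latter sums.

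Cebpb was the most abundant of the 5 genes in all 6 libraries, and Cebpa came second in all 6. Because FPKM is scaled to length, levels can be set side by side between genes. The lowest Cebpb value of any library, 216 FPKM, was above the highest Cebpa value, 176 FPKM. Cebpb ranked 47th to 135th by level among the 11789 genes, and Cebpa 186th to 272nd in 5 libraries and 576th in BLM3. Cebpg was the third in 5 libraries, and its knockout values (27.3 to 38.5 FPKM) lay above those of Cebpz (16.8 to 17.4 FPKM). In the wild-type libraries the ranges of Cebpg (14.7 to 20.4 FPKM) and Cebpz (15.0 to 16.8 FPKM) overlapped, so their order there was not beyond the spread. Cebpd was the lowest in all 6 libraries, with at most 13.6 FPKM against at least 15.0 FPKM for Cebpz. The order of levels among the 5 genes was thus the same in the 2 groups apart from the exchange of Cebpg and Cebpz in BLM3.

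**Figure D2:**
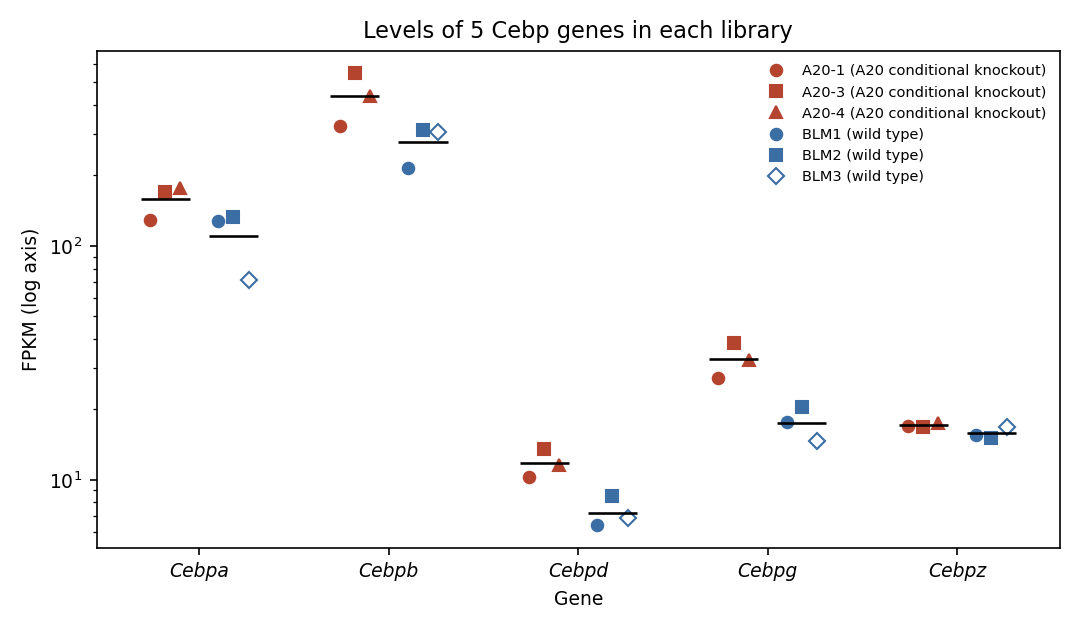
FPKM (log axis) of the 5 genes in each library, with knockout libraries at the left of each pair and wild-type libraries at the right. Bars are group means of 3 libraries and the open diamond is BLM3. Cebpb lies highest and Cebpd lowest throughout, and the Cebpa value of BLM3, 71.4 FPKM, is the one farthest below the others of its gene.

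None of the 5 genes passed the threshold, an adjusted p under 0.05 in limma, a linear model with shared variance fitted over all 10696 tested genes on log2(FPKM + 1) and adjusted by the method of Benjamini and Hochberg. Of all genes tested, 1.10% passed in either direction and 0.252% passed with the higher level in the knockout. All 5 differences were positive, and in 4 genes, Cebpb, Cebpd, Cebpg and Cebpz, every knockout value was above every wild-type value, which held for 15.9% of all genes tested. The unadjusted p was under 0.05 for 3 genes, Cebpb, Cebpd and Cebpg, against 11.0% of all genes with that direction and 20.3% in either. The median log2 difference of the 5 genes was 0.64, against 0.02 over all genes tested. Leaving out BLM3, 0 of 5 passed, where 3.84% of all genes passed, 1.35% with the higher and 2.50% with the lower level in the knockout, and the same 3 had an unadjusted p under 0.05. With limma's array weights, which gave BLM3 a weight of 0.229 and BLM1 one of 6.09, Cebpb, Cebpd and Cebpg passed. In that fit 1934 of the 10696 genes tested passed. BLM2 had a weight of 0.728, so most of the wild-type weight lay on BLM1. The Cebpb and Cebpd levels of BLM1 were the lowest of the wild-type libraries, while its Cebpg level was not. With BLM1 left out and equal weights, the Cebpb log2 difference was 0.46 (limma adjusted p = 0.392).

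Cebpg, the dimer partner, had the largest difference of the 5 when all libraries had equal weight, while with array weights that of Cebpb was larger, at 0.91 against 0.83 on the log2 scale. Its levels were 27.3, 38.5 and 32.5 FPKM in A20-1, A20-3 and A20-4, against 17.6, 20.4 and 14.7 FPKM in BLM1, BLM2 and BLM3. The lowest knockout library was thus well above the highest wild-type one. The means were 32.7 ± 5.60 FPKM in the knockout and 17.6 ± 2.84 FPKM in the wild type (SD, n = 3 each), a ratio of means of 1.86. The log2 difference was 0.86 ± 0.17 (SE), with a 95% interval of 0.45 to 1.27 and a limma adjusted p of 0.0748. It was 0.75 ± 0.16 without BLM3 (limma adjusted p = 0.0582), close to the value with it.

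Cebpd, the inflammation-inducible member, had 10.2, 13.6 and 11.6 FPKM in A20-1, A20-3 and A20-4, against 6.39, 8.49 and 6.83 FPKM in BLM1, BLM2 and BLM3. The groups did not overlap, and A20-1 and BLM2 were the nearest pair. The means were 11.8 ± 1.69 FPKM in the knockout and 7.24 ± 1.10 FPKM in the wild type (SD, n = 3 each), a ratio of 1.63. The log2 difference was 0.64 ± 0.15 (SE), with a 95% interval of 0.28 to 0.99 and a limma adjusted p of 0.0991, or 0.60 ± 0.16 without BLM3 (limma adjusted p = 0.0973).

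Cebpb, the most abundant member, had 327, 547 and 438 FPKM in A20-1, A20-3 and A20-4, against 216, 314 and 306 FPKM in BLM1, BLM2 and BLM3. The gap between the groups was narrow, since A20-1 lay just above BLM2, and the knockout libraries were widely spread. The means were 437 ± 109.9 FPKM in the knockout and 279 ± 54.5 FPKM in the wild type (SD, n = 3 each), a ratio of 1.57. The log2 difference was 0.64 ± 0.24 (SE), with a 95% interval of 0.07 to 1.20 and a limma adjusted p of 0.202. Here BLM3 lay with BLM2, and without it the difference was 0.71 ± 0.25 (limma adjusted p = 0.162).

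Cebpa, the lineage factor, had overlapping values in the groups. Its levels were 129, 170.5 and 176 FPKM in A20-1, A20-3 and A20-4, against 128, 132 and 71.4 FPKM in BLM1, BLM2 and BLM3. A20-1, BLM1 and BLM2 were nearly level, and only BLM3 was far below. The means were 159 ± 25.5 FPKM in the knockout and 111 ± 34.0 FPKM in the wild type (SD, n = 3 each). The log2 difference was 0.56 ± 0.26 (SE), with a 95% interval of -0.08 to 1.19 and a limma adjusted p of 0.293. Without BLM3 it was 0.27 ± 0.15 (limma adjusted p = 0.342), so the size of the Cebpa difference moved with BLM3, the library with the high neutrophil sum, and the part of those cells in it was not tested.

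Cebpz, the ribosome assembly factor, had the smallest spread of the 5. Its levels were 17.03, 16.85 and 17.45 FPKM in A20-1, A20-3 and A20-4, against 15.50, 15.04 and 16.78 FPKM in BLM1, BLM2 and BLM3. The groups did not overlap, but the nearest values, in A20-3 and BLM3, were almost the same. The log2 difference was 0.11 ± 0.09 (SE), with a 95% interval of -0.11 to 0.33 and a limma adjusted p of 0.523. The upper bound lay below the estimates of the other 4 genes, which were 0.56 to 0.86. Without BLM3 it was 0.38, above the Cebpa estimate of 0.27 in that fit.

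**Figure D3:**
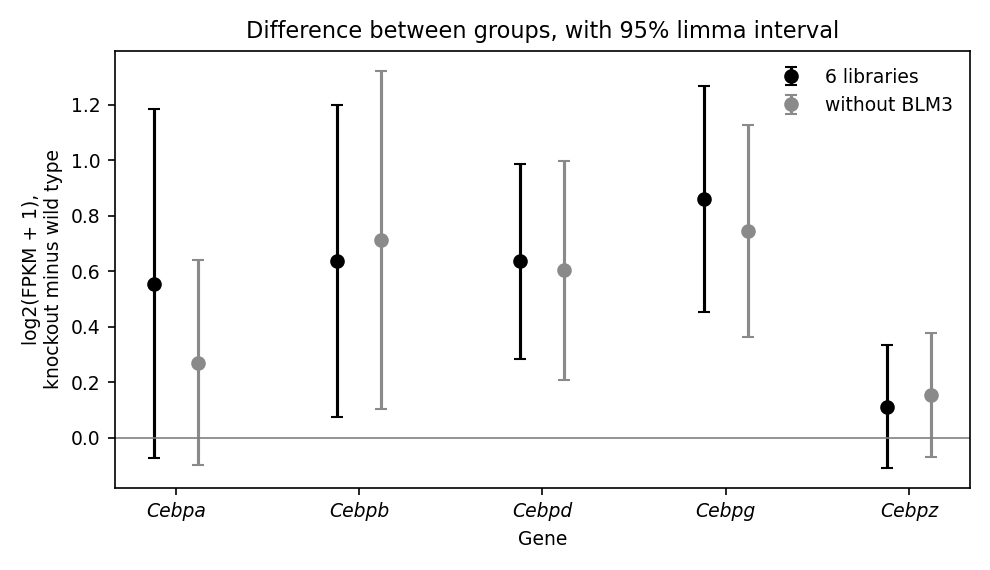
Difference in log2(FPKM + 1), knockout minus wild type, for the 5 genes, with 95% limma intervals, from 6 libraries (black) and without BLM3 (grey). The intervals of Cebpb, Cebpd and Cebpg lie above 0 in both, before any adjustment for the number of genes, and the Cebpa estimate is 0.56 with BLM3 and 0.27 without it.

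Cebpd had high correlations with both Cebpb and Cebpg. Over the 6 libraries Pearson's r of log2(FPKM + 1) was 0.97 for Cebpd with Cebpg, 0.93 for Cebpb with Cebpd and 0.84 for Cebpb with Cebpg. With the group means removed the same pairs had r of 0.85, 0.87 and 0.57, so the first 2 pairs also shared the spread within groups. A20-3 was the highest library for all 3 genes and A20-1 the lowest of the knockout libraries, while BLM2 was the highest of the wild-type libraries. Cebpa with Cebpg had r of 0.85 over the 6 libraries and 0.82 with the group means removed, against 0.53 and 0.07 for Cebpa with Cebpb. In BLM3 Cebpa and Cebpg were both at their lowest, while Cebpb was not. These r describe 6 libraries that share one processing and 2 groups, and no test was made of them.

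**Figure D4:**
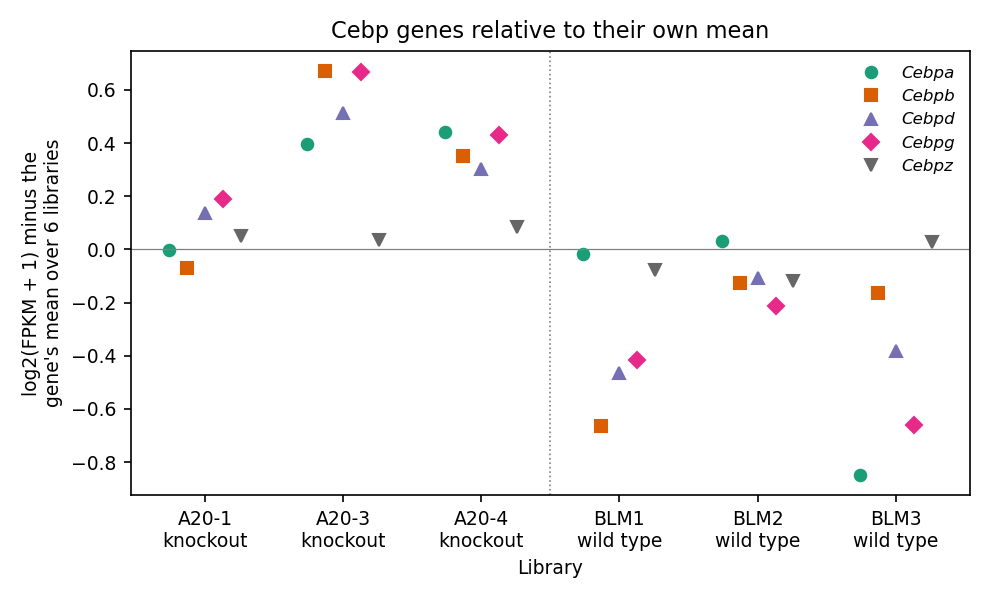
log2(FPKM + 1) of each gene minus its own mean over the 6 libraries, with the knockout libraries at the left and the wild-type libraries at the right of the dotted line. Cebpb, Cebpd and Cebpg lie highest in A20-3, Cebpa drops in BLM3 and Cebpz stays near 0 in all libraries.

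The balance between members is of interest because C/EBP proteins pair with each other, and 3 ratios within a library were compared. The log2 ratio of Cebpb to Cebpa was 1.33, 1.67 and 1.31 in A20-1, A20-3 and A20-4, against 0.75, 1.24 and 2.08 in BLM1, BLM2 and BLM3. The wild-type libraries spanned the knockout ones on both sides, with Cebpb lowest relative to Cebpa in BLM1 and highest in BLM3. The difference in means was 0.08, and a two-sided exact permutation test over the libraries gave p = 0.8, where 0.1 is the smallest value that 3 against 3 allows. The difference was 0.44 without BLM3 and -0.22 without BLM1, so it depended on single wild-type libraries. The Cebpd to Cebpb ratio differed by -0.002 (exact permutation p = 1, 20 splits) and the Cebpd to Cebpa ratio by 0.08 (exact permutation p = 1), or by 0.33 without BLM3 and -0.13 without BLM1. Adjusted over the 3 ratios each p was 1. Among the 4 bZIP genes Cebpb made up 67.9% ± 2.71 of the summed FPKM in the knockout and 67.2% ± 9.05 in the wild type (SD, n = 3 each), and Cebpg 5.16% ± 0.325 and 4.26% ± 0.546. The Cebpg share was 5.53%, 5.002% and 4.94% in A20-1, A20-3 and A20-4, against 4.78%, 4.29% and 3.69% in BLM1, BLM2 and BLM3.

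Members that overlap genes of the opposite strand are uncertain here, because the kit was stranded but whether counting used strand is not stated. Cebpz overlaps Cebpzos, a gene named for its place opposite Cebpz, and 171 exonic bases are common to both, 3.67% of those of Cebpz and 15.1% of those of Cebpzos. Cebpzos was examined for this overlap after its values were seen, and it fell in the knockout. It had 7.66, 7.48 and 7.46 FPKM in A20-1, A20-3 and A20-4, against 13.2, 13.3 and 11.8 FPKM in BLM1, BLM2 and BLM3, differing by -0.69 ± 0.09 on the log2 scale (SE, limma adjusted p = 0.0344). The neighbours on opposite strands thus had differences of opposite sign, and that of Cebpzos passed the threshold while that of Cebpz did not. Its call was lost when any library other than BLM3 was left out and on the TPM scale (limma adjusted p = 0.0503 to 0.159 over these 6). Cebpb shares 312 exonic bases with Tmem189, which averaged 35.6 ± 8.89 FPKM in the knockout and 40.5 ± 6.70 FPKM in the wild type (SD, n = 3 each, limma adjusted p = 0.616). Cebpd shares 562 exonic bases with Spidr, at 6.09 ± 0.419 FPKM in the knockout and 5.54 ± 1.20 FPKM in the wild type (SD, n = 3 each, limma adjusted p = 0.646). Neither neighbour passed the threshold, and the values of both overlapped between groups.

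The genes whose levels followed each member most closely over the 6 libraries, by Pearson's r of log2(FPKM + 1), are named as a description. For Cebpb they were Tmem150a (0.989), the chaperonin subunit gene Cct4 (0.983) and Batf (0.982), a bZIP gene of the partner list. For Cebpd they were Dnajc14 (0.997), Tbkbp1 (0.991) and the Kruppel-like factor gene Klf10 (0.987), and for Cebpg Abcc5 (0.997), Adamtsl4 (0.996) and the pyruvate dehydrogenase kinase gene Pdk3 (0.995). Those of Cebpa were Prmt2 (0.993), Emc7 (0.992) and Foxk2 (0.992), and those of Cebpz were Micall1 (0.996), Padi2 (0.992) and Psd4 (0.992). None of these 15 genes passed the threshold, and no test was made of r.

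The partner list held genes for bZIP partners of C/EBP proteins and for proteins of neighbouring bZIP families. Of its 13 tested genes 0 passed in limma over all genes, and 5 had values that did not overlap, 3 higher and 2 lower in the knockout. That is 38.5% of the list, against 29.0% of all genes tested. The median log2 difference was -0.10, against 0.02 over all genes, and without BLM3 it turned to 0.25. Atf3, a stress-induced partner, averaged 20.1 ± 5.32 FPKM in the knockout and 59.1 ± 18.4 FPKM in the wild type (SD, n = 3 each). The difference was -1.49 ± 0.29 in log2 units (SE, limma adjusted p = 0.0718). Atf5, a relative of ATF4, averaged 19.4 ± 3.73 FPKM in the knockout and 10.1 ± 3.17 FPKM in the wild type, with a difference of 0.90 ± 0.24 in log2 units (limma adjusted p = 0.122). Without BLM3 2 genes of the list rose, Atf5 (1.10, limma adjusted p = 0.0453) and Fosl2 (0.99, limma adjusted p = 0.0498), where 1.35% of all genes rose in that fit. Fosl2 was chosen after its values were seen. Ddit3, which encodes the C/EBP homologue CHOP, had 12.2, 16.8 and 19.3 FPKM in A20-1, A20-3 and A20-4, against 13.6, 12.8 and 36.8 FPKM in BLM1, BLM2 and BLM3, and BLM3 was the one that stood out. Atf4 averaged 82.8 ± 13.9 FPKM in the knockout and 94.0 ± 16.8 FPKM in the wild type (limma adjusted p = 0.601). Ddit3 and Atf4 were named after their values were seen.

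Of 19 genes that act on C/EBP proteins or their genes, 0 passed. The difference was positive in 16 of them, against 5663 of all 10696 genes tested, and the median was 0.20, against 0.02 over all genes. Values did not overlap in 36.8% of the list, 6 higher and 1 lower in the knockout, against 29.0% of all genes tested. Stat3, which drives Cebpb and Cebpd transcription in cytokine signalling, had 33.6, 30.2 and 32.7 FPKM in A20-1, A20-3 and A20-4, against 24.3, 23.3 and 24.7 FPKM in BLM1, BLM2 and BLM3. The groups were well apart, but the log2 difference of 0.40 ± 0.09 (SE) had a limma adjusted p of 0.0993. Ep300, the gene of the coactivator p300, averaged 13.8 ± 1.62 FPKM in the knockout and 9.91 ± 0.685 FPKM in the wild type (SD, n = 3 each), differing on the log2 scale by 0.44 ± 0.12 (limma adjusted p = 0.123). Trib1, whose product steers C/EBP alpha to degradation, was named after its values were seen and had 6.03, 10.2 and 6.32 FPKM in the knockout libraries, against 4.93, 7.21 and 29.8 FPKM in BLM1, BLM2 and BLM3. Trib1 was highest in BLM3, where Cebpa RNA was at its lowest, and a link between the 2 was not tested.

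Genes described as C/EBP targets in macrophages and granulocytes had negative differences more often than all genes with BLM3 included, and this tally depended on that library. Of 20 gene IDs tested (Itgam carries 2 of them), 1 fell and 0 rose, where 0.851% of all genes fell, 16 differences (80.0%) were negative, against 47.1% of all genes, and the median was -1.18. Without BLM3 12 were negative and 8 positive, and the median was -0.19. In 9 of the 20, or 45.0%, the values did not overlap, against 29.0% of all genes tested, and all 9 were lower in the knockout, against 13.1% of all genes. The list shares Cd14 and Itgam with the monocyte markers and Csf3r with the neutrophil markers. The monocyte sum, mostly C1qa, C1qb and C1qc, was 375 to 505 FPKM in the knockout and 1234 to 1687 FPKM in the wild-type libraries. The part of such cells in these values was not tested. Msr1, a scavenger receptor gene, had 24.7, 18.7 and 15.7 FPKM in A20-1, A20-3 and A20-4, against 40.9, 51.5 and 45.5 FPKM in BLM1, BLM2 and BLM3, and fell by 1.20 ± 0.18 on the log2 scale (SE, limma adjusted p = 0.0445). Its call was lost without any 1 library other than BLM3 and on the TPM scale (limma adjusted p = 0.0503 to 0.170 over these 6). Hp, the haptoglobin gene, had 8.46, 7.39 and 6.12 FPKM in the knockout libraries, against 52.2, 28.2 and 119.9 FPKM in BLM1, BLM2 and BLM3 (log2 difference -2.79 ± 0.48, SE, limma adjusted p = 0.0584). Without BLM3 4 fell, namely Msr1, Hp (limma adjusted p = 0.0161), Arg1 and the acute-phase gene Saa3, where 2.50% of all genes fell in that fit. Arg1 and Saa3 were named after their values were seen. Saa3 had 0.362, 0.518 and 0.265 FPKM in A20-1, A20-3 and A20-4, against 1.31, 1.66 and 181 FPKM in BLM1, BLM2 and BLM3. Its call thus rests on values near the floor, and it was tested there because the minimum mean level was taken over all 6 libraries.

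Of 8 tested genes described downstream of C/EBP alpha and beta in lipid storage, 1 fell and 0 rose, where 0.851% of all genes fell, and the median log2 difference was -0.48, or -0.27 without BLM3. Cd36, a fatty acid and lipoprotein scavenger receptor gene, had 32.3, 21.2 and 38.6 FPKM in A20-1, A20-3 and A20-4, against 106.2, 81.7 and 89.5 FPKM in BLM1, BLM2 and BLM3, and fell by 1.59 ± 0.23 on the log2 scale (SE, limma adjusted p = 0.0375). This call too was lost without any 1 library other than BLM3 and on the TPM scale (limma adjusted p = 0.0503 to 0.137 over these 6). Cidec, a lipid droplet gene, pointed the other way with 37.5, 31.0 and 42.1 FPKM in the knockout libraries, against 6.02, 12.7 and 2.24 FPKM in BLM1, BLM2 and BLM3 (log2 difference 2.47 ± 0.49, SE, limma adjusted p = 0.0747). Without BLM3 Cidec rose, and Cd36 and Lpl fell, where 1.35% of all genes rose and 2.50% fell in that fit. Lpl, the lipoprotein lipase gene, and Pparg, the nuclear receptor gene with which Cebpa acts in fat cells, were named after their values were seen. Pparg had 45.2, 42.5 and 36.6 FPKM in A20-1, A20-3 and A20-4, against 29.5, 32.2 and 13.4 FPKM in BLM1, BLM2 and BLM3 (log2 difference 0.79, limma adjusted p = 0.230). Like Cebpa it was lowest in BLM3, and without that library the difference was 0.41 (limma adjusted p = 0.114). Cidec and Pparg are also among the 5 alveolar macrophage markers that were higher in every knockout library.

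Of 11 tested amino acid response genes, described as targets of ATF4 and its partners, 0 passed and the median was 0.07, or 0.13 without BLM3, against 0.02 and 0.03 over all genes. Aldh18a1, an enzyme gene of proline synthesis, averaged 13.3 ± 1.24 FPKM in the knockout and 8.18 ± 0.402 FPKM in the wild type (SD, n = 3 each), differing on the log2 scale by 0.63 ± 0.11 (SE, limma adjusted p = 0.0557), and it rose without BLM3 (0.60, limma adjusted p = 0.0466). Phgdh, the first enzyme gene of serine synthesis, had 21.6, 24.9 and 25.2 FPKM in A20-1, A20-3 and A20-4, against 10.8, 15.9 and 9.13 FPKM in BLM1, BLM2 and BLM3 (log2 difference 0.97 ± 0.20, SE, limma adjusted p = 0.0797). Asns, the asparagine synthetase gene and a standard readout of this response, was named after its values were seen and had a log2 difference of 0.33 (limma adjusted p = 0.444). It ran from 0.16 without BLM1 to 0.55 without BLM3, and with array weights it was 0.65 and passed (limma adjusted p = 0.0322).

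Of 20 genes for assembly of the large ribosomal subunit, the setting of Cebpz, 0 passed and the median was -0.05, or -0.002 without BLM3. The values did not overlap in 1 of them, 5%, against 29.0% of all genes tested. That gene was Nip7, at 8.15 ± 0.306 FPKM in the knockout and 9.49 ± 0.952 FPKM in the wild type (SD, n = 3 each, log2 difference -0.19 ± 0.11, SE, limma adjusted p = 0.349). Noc2l, whose yeast relative pairs with that of Cebpz, had a log2 difference of 0.21 ± 0.13 (limma adjusted p = 0.385). Like Cebpz, the list showed small differences throughout.

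**Figure D5:**
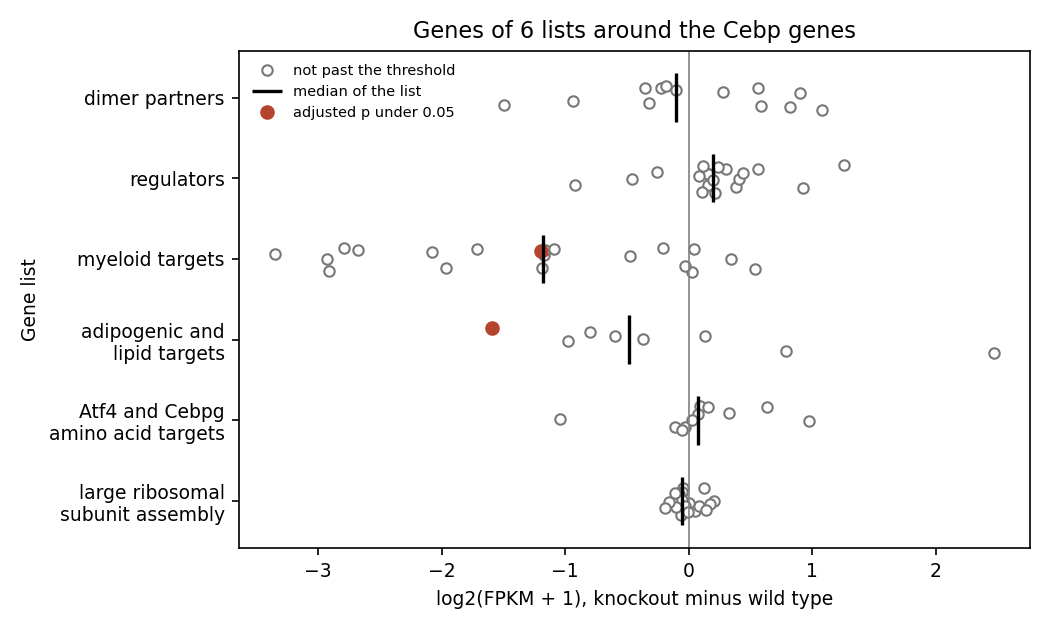
Difference in log2(FPKM + 1), knockout minus wild type, of each tested gene in 6 lists, with the list median as a bar. Filled points passed the threshold (Msr1 and Cd36). The myeloid targets have a median of -1.18 and the ribosome assembly genes lie close to 0.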

How the data were processed

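The 6 RNA-seq libraries of mouse alveolar macrophages each used 1 ug of total RNA and a stranded kit, per the labels' protocols. The authors deposited FPKM per gene and library, per the file headers, on genome build GRCm38 according to the submitters' processing notes. No source used here gives the aligner, quantifier, strand setting or annotation release, and the read depth is unknown. Sums of FPKM were 266094 to 294525 per library. Columns named A20 were taken as knockout and columns named only BLM as wild type. The numbers of the A20 columns are not the replicate numbers of the titles, so columns stand for groups.

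Testing covered the 10696 of 11789 genes averaging 1 FPKM or more, on log2(FPKM + 1) with limma 3.58.1 in R 4.3.3 (eBayes with trend), two-sided, adjusted over all genes tested, at a threshold of 0.05. Differences are knockout minus wild type and understate changes of low genes. Ratios between members used an exact permutation test. Lists are described by counts and medians beside those of all genes. The 5 members and the 6 gene and 5 marker lists were chosen with earlier results of these data known. Genes named from the 6 gene lists are those past the threshold or, where fewer than 2 passed, the 2 with the smallest p. Any other gene of these lists given with values is said to be chosen with its values known. Genes of the 5 marker lists were named with their values known. For each member the 3 genes with the highest correlation are named, leaving out predicted and clone names. Some list genes were not analysed here. Each of the 13 alternatives was run for the members and the 6 gene lists. Added after their values were seen were Tnfaip3, the 3 overlapping genes and the genes of those 6 lists given with values. The 13 were other pseudocounts, minimum levels and scalings, array weights, and leaving out each library. Ratios were run with other pseudocounts, TPM and each library left out. The 5 marker lists were refitted only without BLM3, and genes named by correlation had no alternative.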

Additional observations from a re-analysis of the deposited data

How the results depend on the processing

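All 5 C/EBP differences stayed positive under all 13 alternatives. For the 4 genes without overlap this had to follow under every alternative except the TPM and quantile scalings. Other minimum levels left the differences of all 5 unchanged. Calls of these 5 changed only with array weights, where Cebpb (0.91), Cebpd (0.74) and Cebpg (0.83) passed (limma adjusted p = 0.0224, 0.0110 and 0.00800). Over the 13 alternatives the adjusted p ran from 0.0224 to 0.434 for Cebpb, 0.0110 to 0.298 for Cebpd, 0.00800 to 0.269 for Cebpg, 0.157 to 0.564 for Cebpa and 0.187 to 0.729 for Cebpz. The genes called in all numbered 118, with 1934 under array weights, 75 with a minimum mean FPKM of 5, and 0 to 411 when a library was left out. The lowest was without A20-3, where limma called 0 (1694 at an unadjusted p under 0.05). Without A20-1 there were 35, without A20-4 14, without BLM1 4 and without BLM3 411. Rescaled to TPM, 41 genes rose and 64 fell, or 39.0% rises against 22.9% as deposited, with a median over all genes of 0.10.

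Array weights called 6 of 13 genes of the partner list and 8 of 19 regulators. They also called 5 of 20 myeloid targets, 5 of 8 lipid genes and 3 of 11 amino acid genes. That setting called 1934 of all 10696 genes tested. TPM called 0 myeloid targets and 0 lipid genes. Without a library these lists had 0 to 2, 0 to 1, 0 to 4, 0 to 3 and 0 to 1 calls, and 0 of the ribosome assembly genes were called in any setting. The 3 ratio differences, for which no test passed, changed sign. Cebpd to Cebpb was 0.0592 with a pseudocount of 0.1, 0.0437 under TPM and -0.11 to 0.10 without a library. Cebpd to Cebpa was -0.0815 with a pseudocount of 5 and -0.13 to 0.33 without a library, and Cebpb to Cebpa was -0.22 to 0.44 without a library. Among other named genes Ddit3 (0.21), Atf4 (0.0212) and Trib1 (0.34) turned positive with array weights. Without a library Ddit3 spanned -0.48 to 0.25, Trib1 -0.93 to 0.26 and Tnfaip3 -0.14 to 1.27. The cause was not tested. No paired analysis was possible because the columns could be tied to groups only, and the numbers of the A20 columns (A20-1, A20-3 and A20-4) are not those of the titles. The unknown depth gives no counting error, and 3 libraries a group limit precision.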
